A study of Mus musculus with 20 samples.

Results

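The ZFP36 family comprises the genes Zfp36 (ENSMUSG00000044786, whose product is also called tristetraprolin), Zfp36l1 (ENSMUSG00000021127) and Zfp36l2 (ENSMUSG00000045817). All 3 were found by symbol, among 15608 genes in the liver count table and 20738 in the count table of epididymal white adipose tissue (eWAT, a depot lying on the epididymis). All 3 passed the filter on low counts in both tissues. They were chosen after Zfp36l1 had been seen to be higher in every IR 4A liver library, so the liver comparison of genotypes is given for all members as a description, with no test. The mice were males of 2 months of age, either wild type (WT) or IR 4A, whose insulin receptor carries changes in its binding motif for MAD2, a spindle checkpoint protein. There were 20 libraries of poly-A RNA, 5 each from liver WT, liver IR 4A, eWAT WT and eWAT IR 4A. The labels name no strain, treatment or animal number, so the spread between libraries may be partly technical.

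The proteins of this family bind AU-rich elements in the 3′ untranslated region (3′ UTR) of short-lived messenger RNAs through zinc fingers of the CCCH type. They recruit the CCR4-NOT deadenylase, which shortens the poly-A tail, and decapping and exonucleolytic decay follow. Transcripts of cytokines, growth regulators and metabolic hormones are among their known targets. Insulin and other growth factors, inflammatory signals and stress are known to induce the family genes within minutes as immediate early genes. Their own messenger RNAs are short-lived too.

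The AU-rich elements of the family's own transcripts are shown first, since the same kind of element marks the targets discussed further on. In the longest coding transcript annotated for each gene (GENCODE M21, GRCm38), the 3′ UTR of every member held 1 copy of the 9-base motif TTATTTATT and 3 copies of the 7-base motif TATTTAT that lies inside it. Only the transcript strand was searched. Of 20935 genes with an annotated 3′ UTR, 7.55% held TTATTTATT at least once. Windows of 25 bases around the first copy are given 5′ to 3′ for the members and for 3 known targets, with whole copies of the motif in capitals.
Zfp36: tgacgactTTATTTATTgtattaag
Zfp36l1: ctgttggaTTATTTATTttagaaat
Zfp36l2: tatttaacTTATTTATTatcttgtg
Tnf: tgcacttaTTATTTATTATTTATTt
Fgf21: gtttccacTTATTTATTacgggtat
Fos: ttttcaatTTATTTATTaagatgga
The window begins 8 bases before the motif, which starts at base 589 of the 774-base 3′ UTR of Zfp36, at base 1404 of 1835 in Zfp36l1 and at base 821 of 1822 in Zfp36l2.  Tnf, the cytokine gene through which the family was characterised, held 5 copies, and Fgf21, a hepatic hormone gene, held 3. In a list of 31 transcripts known as targets, 17 held the motif (54.8%). Myc and Cyp7a1 of that list held no copy in the annotated 3′ UTR.

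Both promoters that could be matched in the RefSeq table (GRCm38.p6) are shown because the liver levels of Zfp36 and Zfp36l1 differed in pattern. Each window covers the 160 bases before the transcription start on the minus strand, written 5′ to 3′, with matches to 5 motifs in capitals. That of Zfp36 is chr7:28379229-28379388 and that of Zfp36l1 is chr12:80113014-80113173.
Zfp36: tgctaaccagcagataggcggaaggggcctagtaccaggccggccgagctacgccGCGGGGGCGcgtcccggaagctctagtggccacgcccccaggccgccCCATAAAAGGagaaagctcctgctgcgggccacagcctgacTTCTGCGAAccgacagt
Zfp36l1: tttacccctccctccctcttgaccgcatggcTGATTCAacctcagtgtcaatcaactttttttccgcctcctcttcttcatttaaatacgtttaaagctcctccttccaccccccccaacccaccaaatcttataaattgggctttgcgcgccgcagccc
The motifs searched on both strands of the 250 bases before the start were the CArG box of serum response factor, GCGNGGGCG (bound by EGR proteins), TGANTCA (AP-1), GTAAACA (forkhead factors) and TTCNNNGAA (STAT factors). In Zfp36 a GCGNGGGCG match lay at bases -105 to -97, a CArG box at -58 to -49 and a TTCNNNGAA match at -17 to -9. Zfp36l1 had a single match, TGANTCA at -129 to -123. Among 32851 promoters of the table, 1.47% held the CArG box, 4.7% GCGNGGGCG, 6.75% TGANTCA, 3.17% GTAAACA and 7.02% TTCNNNGAA. These are matches of letters, not measured binding.

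Total estimated counts per library ran from 17989420 to 24238359 in liver and from 13651874 to 21615358 in eWAT. The members had between 534 and 4522 counts in each library, so the spread between libraries exceeded counting error. Levels are given as CPM, counts scaled to a common library size within each tissue by TMM. In WT liver the mean level of Zfp36 lay above that of 90.9% of tested genes, of Zfp36l1 above 90.6% and of Zfp36l2 above 82.4%. In WT eWAT these values were 80.4%, 92.6% and 90.8%. All 10 hepatocyte markers were tested in liver. Their summed level ran from 78392 to 91701 CPM in WT and from 78181 to 89678 CPM in IR 4A. The eWAT libraries expressed all 10 adipocyte markers, at a summed 10975 to 37280 CPM in WT and 3232 to 20582 CPM in IR 4A (10 of 10 with a negative log2 fold change). They also held 13 of 13 epididymis markers, whose summed level was 4741 to 24626 CPM in WT and 23458 to 32422 CPM in IR 4A. In liver 2 of the 13 epididymis markers were in the count table and 0 passed the filter on low counts, so no level is given there. Testis and sperm markers exceeded 2000 CPM in 4 eWAT libraries (WT 1, WT 2, IR 4A 3 and IR 4A 4). Liver WT 1 and WT 3 stood apart in acute phase genes, with 128108 and 72695 CPM against 17077 to 33559 CPM in the other 8 liver libraries.

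Zfp36l1, the member with a broad role in growth and differentiation, was the one whose liver libraries separated by genotype. WT liver replicates 1 to 5 held 91.1, 84.4, 94.9, 102 and 77.8 CPM. In IR 4A liver it stood at 115, 157, 170.1, 145 and 158 CPM. The lowest IR 4A library, replicate 1, was above the highest WT library, replicate 4. WT libraries averaged 90.1 ± 9.49 CPM, against 149 ± 21.2 CPM for IR 4A (SD, n = 5), a log2 fold change of 0.73 (SE 0.11). Among all tested liver genes, 1.68% had every IR 4A library above every WT library. Liver WT 1 and WT 3, which were high in acute phase genes, lay within the range of the other WT libraries for Zfp36l1, and without both the log2 fold change was 0.76 (SE 0.14). The summed markers of stellate cells and fibroblasts also separated in liver, by little, at 229 to 265 CPM in WT and 267 to 387 CPM in IR 4A. Of the 11 tested markers, 11 had a positive log2 fold change (median 0.52) and 0 separated the genotypes singly. The summed markers of B and plasma cells separated by little too, at 22.3 to 31.8 CPM in WT and 32.7 to 58.1 CPM in IR 4A. Of these, 4 of 5 tested markers were positive and 1 separated singly. In bulk tissue, more cells of a type and more RNA per cell cannot be told apart. The part of these cells in the Zfp36l1 difference was not tested. Hepatocyte and endothelial markers overlapped between the genotypes.

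**Figure D1:**
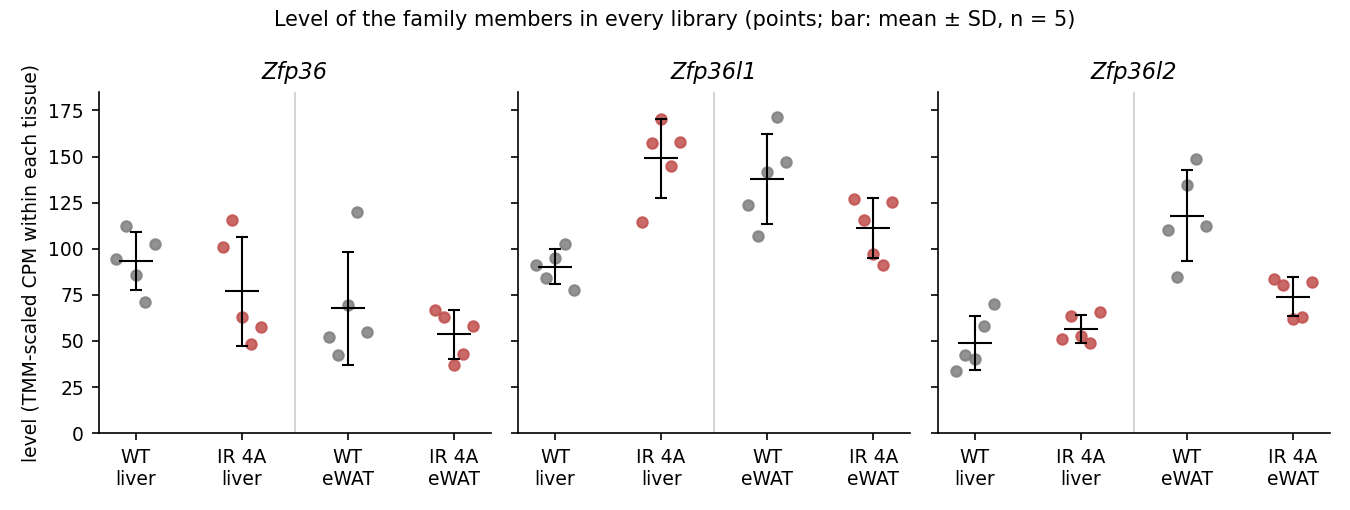
Level of each member in TMM-scaled CPM (y axis, from 0) in the 4 groups (x axis). Points are libraries and bars give the mean ± SD of 5 libraries. Levels were scaled within each tissue, so heights should be compared within liver and within eWAT only. Zfp36l1 in liver (77.8 to 102 CPM in WT, 115 to 170.1 CPM in IR 4A) and Zfp36l2 in eWAT (84.6 to 148 CPM in WT, 61.9 to 83.5 CPM in IR 4A) are the panels in which the genotypes do not overlap.

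Zfp36, the member best known for the decay of inflammatory transcripts, did not follow Zfp36l1 in liver. It stood at 94.6, 112.3, 85.8, 71.2 and 102 CPM in WT replicates 1 to 5. In IR 4A replicates 1 to 5 it stood at 100.99, 116, 62.8, 48.2 and 57.7 CPM. Replicate 2 of IR 4A lay above every WT library, replicate 1 within the WT range and replicates 3, 4 and 5 below every WT library, so the genotypes overlapped. The log2 fold change was -0.28 (SE 0.23), and the SD rose from 15.7 CPM in WT to 29.5 CPM in IR 4A.

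Zfp36l2, known for roles in lymphocyte and germ cell development, overlapped between the genotypes in liver as well. It stood at 33.9, 42.2, 40.2, 57.9 and 70.2 CPM in WT replicates 1 to 5. In IR 4A it stood at 51.1, 63.4, 52.9, 49.0 and 65.8 CPM. The WT libraries spanned the whole IR 4A range. The log2 fold change was 0.21 (SE 0.18), and without liver WT 1 and WT 3, which were its 2 lowest libraries, it was -0.01 (SE 0.16).

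The balance between members within a library does not depend on how libraries are scaled to one another. To compare different genes, CPM was divided by the length of that longest coding transcript (2790 bases for Zfp36, 2990 for Zfp36l1 and 3530 for Zfp36l2). The shares, the order of members and the summed signal rest on these lengths, and other lengths were not tried. Zfp36l1 made up 39.1 ± 5.65% of the summed family signal per kilobase in WT liver (31.5 to 45.0%) and 53.7 ± 8.19% in IR 4A liver (43.0 to 60.9%). Zfp36 made up 43.1 ± 6.16% and 29.1 ± 9.01%. Zfp36l2 made up 17.8 ± 4.77% and 17.2 ± 1.81%. The ranges of each share overlapped between the genotypes. The summed family signal was 77.4 ± 3.93 CPM per kilobase in WT liver and 93.4 ± 11.8 in IR 4A liver (SD, n = 5).

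**Figure D2:**
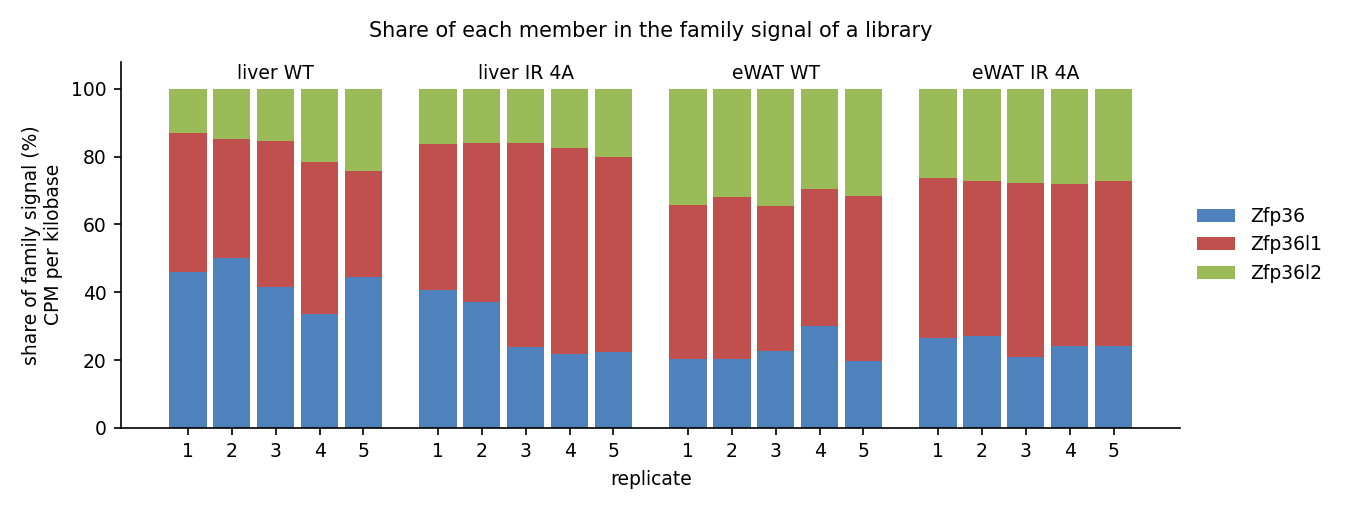
Share of each member in the summed family signal (CPM per kilobase of transcript, y axis in percent) in each of the 20 libraries (x axis, by group and replicate). Zfp36l2 makes up 29.6 to 34.6% in eWAT WT and 26.3 to 28.0% in eWAT IR 4A, and Zfp36 ranges from 21.7 to 40.7% within liver IR 4A.

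In eWAT the question was whether the members differ between IR 4A and WT in a tissue that was not used to choose them. No member passed the test across all genes (the quasi-likelihood test of edgeR, p-values adjusted by Benjamini-Hochberg), against a background of 2 called genes among 16476 (0.0121%). At an unadjusted p under 0.05, 1 of 3 members and 15.9% of all tested genes were counted. The direction seen for Zfp36l1 in liver was not present in eWAT, where all 3 members had negative log2 fold changes.

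Zfp36l2 had the lowest ratio of IR 4A to WT among the members in eWAT. In WT replicates 1 to 5 it stood at 110.0, 84.6, 135, 148 and 112.1 CPM. In IR 4A replicates 1 to 5 it stood at 83.5, 80.1, 61.9, 62.8 and 82.0 CPM. Each IR 4A library was below each WT library, with replicate 2 of WT and replicate 1 of IR 4A differing by little. The means were 118 ± 24.6 CPM and 74.1 ± 10.8 CPM (SD, n = 5), -0.67 on the log2 scale (SE 0.16), and the adjusted p by edgeR was 0.173. Among all tested eWAT genes, 3.22% had every IR 4A library below every WT library. In the authors' deposited table, made with DESeq2, Zfp36l2 has a log2 fold change of -0.68 (SE 0.19, adjusted p = 0.0236), where 2.7% of genes with an adjusted p are called. DESeq2 run here gave -0.67 (adjusted p = 0.00351) and limma voom with sample weights -0.65 (adjusted p = 0.0416), where these tools called 7.31% and 0.473% of all tested genes, so the call depends on the tool. Over 22 alternatives the adjusted p ran from 0.00351 to 0.804.

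Zfp36l1 and Zfp36 overlapped between the genotypes in eWAT. Zfp36l1 stood at 124, 107, 142, 171 and 147 CPM in WT replicates 1 to 5 and at 127, 115, 97.0, 91.1 and 125 CPM in IR 4A replicates 1 to 5. Its log2 fold change was -0.31 (SE 0.14, edgeR adjusted p = 0.329). Zfp36 stood at 51.9, 42.3, 69.4, 119.7 and 55.0 CPM in WT and at 66.8, 63.1, 36.8, 42.7 and 58.2 CPM in IR 4A. Its log2 fold change was -0.34 (SE 0.29, edgeR adjusted p = 0.593). Replicate 4 of WT was the highest library for all 3 members, and the lowest WT library in epididymis markers (4741 CPM). Without it the log2 fold change of Zfp36 was -0.03.

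The ratios of members within an eWAT library were compared by two-sided exact permutation tests with 252 assignments of the genotype labels, adjusted over 3 ratios. Zfp36l1 rose relative to Zfp36l2: the log2 ratio of counts was 0.23 ± 0.13 in WT (0.07 to 0.39) and 0.58 ± 0.05 in IR 4A (0.53 to 0.65), higher in all 5 IR 4A libraries than in any WT library (difference 0.35, exact permutation p = 0.00794, adjusted p = 0.0238). With medians in place of means it did not pass (difference 0.40, exact permutation p = 0.0476, adjusted p = 0.143). The ratio of Zfp36 to Zfp36l2 was -0.87 ± 0.32 in WT and -0.49 ± 0.17 in IR 4A (exact permutation adjusted p = 0.0833). It passed without WT replicate 4 (difference 0.52, exact permutation adjusted p = 0.0238). Without any other single library it did not pass (exact permutation adjusted p = 0.0714 to 0.155), nor with medians (difference 0.50, exact permutation adjusted p = 0.286). The ratio of Zfp36l1 to Zfp36 was 1.11 ± 0.36 and 1.08 ± 0.20 (exact permutation adjusted p = 0.897).

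The eWAT groups also separated in the summed markers of fibroblasts and macrophages, and overlapped in those of endothelium and epididymis. The summed stellate cell and fibroblast markers were 3132 to 7559 CPM in WT and 860 to 2448 CPM in IR 4A, with 12 of 12 markers negative and a median log2 fold change of -1.11. Macrophage markers were 386 to 1111 CPM in WT and 142 to 304 CPM in IR 4A, with 10 of 10 tested markers negative and a median of -1.40, while the Kupffer cell markers Clec4f and Vsig4 were too low to be tested. Endothelial markers were 492 to 1411 CPM and 190 to 693 CPM, with 9 of 9 negative. No marker of these lists passed the edgeR test. Epididymis markers had 13 of 13 positive, and cholangiocyte markers, which other duct epithelia also express, 7 of 7 (242 to 530 CPM in WT, 539 to 608 CPM in IR 4A). Apart from the fits with a marker level as covariate, the part of these cells in the Zfp36l2 difference was not tested. WT 4 and WT 3 were highest in Zfp36l2 and in fibroblast and macrophage markers, and IR 4A 3 and IR 4A 4 were lowest in all of them. With the fibroblast level as a covariate, Zfp36l2 stood -0.07 on the log2 scale from WT (edgeR adjusted p = 0.804), in a fit where the marker level and the genotype do not overlap and so are hard to separate. With the epididymis level as a covariate, Zfp36l2 stood at -0.50 (SE 0.18, edgeR adjusted p = 0.673). Without the 4 libraries high in testis markers its log2 fold change was -0.68 (SE 0.12) with 3 libraries per genotype, and the edgeR adjusted p was 0.59.

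**Figure D3:**
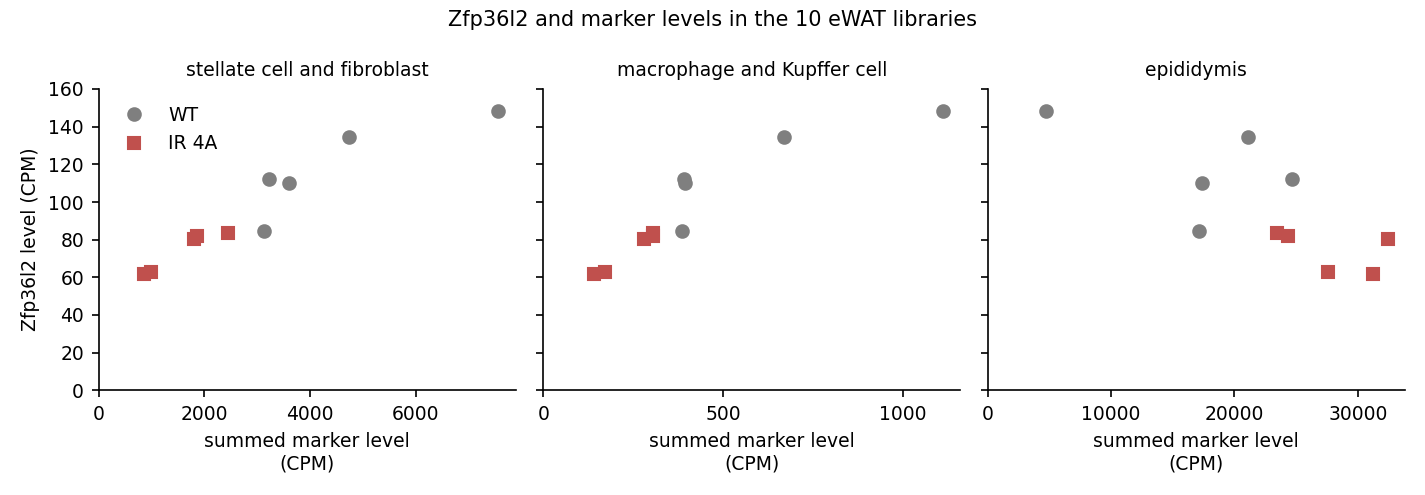
Zfp36l2 level in CPM (y axis) against the summed level of stellate cell and fibroblast, macrophage and Kupffer cell, and epididymis markers (x axes, CPM) in the 10 eWAT libraries, grey circles for WT and red squares for IR 4A. WT libraries lie at 84.6 to 148 CPM and IR 4A libraries at 61.9 to 83.5 CPM, and in the fibroblast and macrophage panels the genotypes occupy separate ranges of marker level as well.

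The tissues were compared in WT in a single fit of all 20 libraries. The order of members per kilobase differed between tissues: in WT liver it was Zfp36 (33.4 ± 5.64 CPM per kilobase), Zfp36l1 (30.1 ± 3.17) and Zfp36l2 (13.8 ± 4.21), where Zfp36 and Zfp36l1 did not differ beyond their spread. In WT eWAT it was Zfp36l1 (46.2 ± 8.16), Zfp36l2 (33.4 ± 6.97) and Zfp36 (24.2 ± 10.996), where the ranges of neighbours overlapped (Zfp36l1 35.7 to 57.3, Zfp36l2 23.96 to 42.1 and Zfp36 15.2 to 42.9). The order within a tissue rests on the transcript lengths taken, while the ratios of counts compared between tissues use no length. Zfp36 was lower in eWAT relative to both relatives. Its log2 ratio to Zfp36l2 was 0.96 ± 0.52 in WT liver and -0.87 ± 0.32 in WT eWAT (exact permutation p = 0.00794, adjusted p = 0.0238, n = 5 per tissue). The log2 ratio of Zfp36l1 to Zfp36 was -0.04 ± 0.39 in liver and 1.11 ± 0.36 in eWAT (exact permutation adjusted p = 0.0238), and that of Zfp36l1 to Zfp36l2 was 0.93 ± 0.49 and 0.23 ± 0.13 (exact permutation adjusted p = 0.0397). These ratio tests were added after the data were seen.

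Set against other genes, 2 of 3 members passed between the tissues in WT, where 77.1% of all genes in both tables did. These differences rest on the scaling, since TMM factors ran from 0.548 to 0.647 in liver and from 1.48 to 1.81 in eWAT, and with library totals alone the median of all genes moved from 0.19 to 1.69. On the TMM scale shared by the tissues, Zfp36 averaged 154 ± 26.9 CPM in WT liver and 44.3 ± 19.2 CPM in WT eWAT (log2 difference -1.80, SE 0.27, edgeR adjusted p = 7.74e-06), and with library totals alone the difference was -0.32 (edgeR adjusted p = 0.213). Zfp36l1 averaged 148 ± 14.4 and 90.6 ± 14.9 CPM (-0.71, SE 0.13, edgeR adjusted p = 5.51e-05), and with library totals alone it turned to 0.78 (edgeR adjusted p = 2.96e-06). Zfp36l2 averaged 80.4 ± 24.3 and 77.4 ± 15.4 CPM (-0.05, SE 0.18, edgeR adjusted p = 0.783), and with library totals alone it turned to 1.44 (edgeR adjusted p = 1.19e-07). In IR 4A all 3 members passed on the TMM scale, as did 75.3% of genes, with log2 differences of -1.87 for Zfp36, -1.77 for Zfp36l1 and -0.95 for Zfp36l2. Library totals alone were not tried for IR 4A. The genotype effect in eWAT minus that in liver was -1.06 (SE 0.18) for Zfp36l1, -0.90 (SE 0.25) for Zfp36l2 and -0.08 (SE 0.38) for Zfp36. It is given without a test because it holds the liver contrast.

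**Figure D4:**
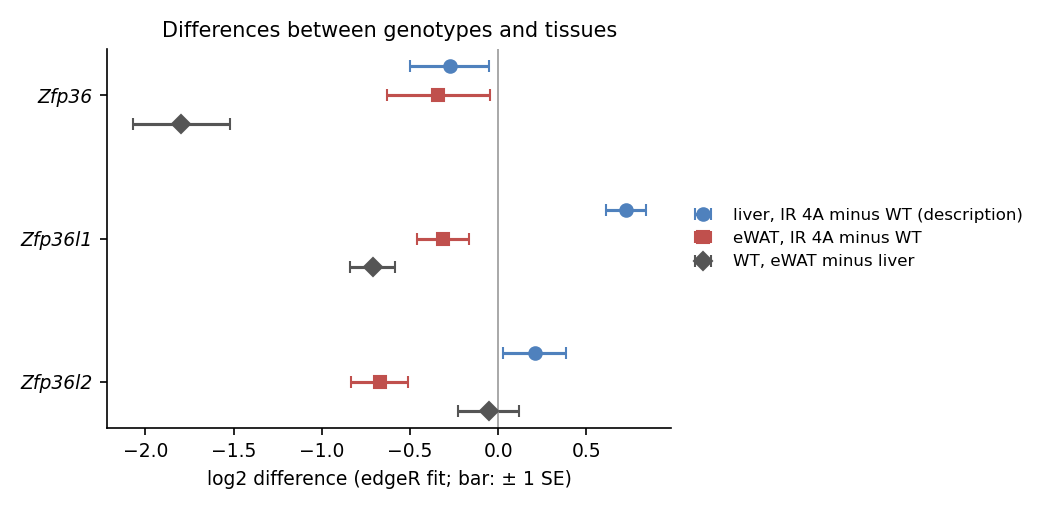
Log2 differences of each member (x axis, edgeR fit, bars ± 1 SE) between genotypes in liver (blue circles, description only), between genotypes in eWAT (red squares) and between tissues in WT (grey diamonds, scale shared by the tissues). Zfp36l1 has 0.73 in liver and -0.31 in eWAT, and Zfp36 has -1.80 between tissues, where with library totals alone it has -0.32 and Zfp36l1 and Zfp36l2 turn positive.

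The machinery through which the family acts was read next. In liver, 1 of 12421 tested genes passed the edgeR test (0.00805%), and 18.1% had an unadjusted p under 0.05 (8.6% higher and 9.48% lower in IR 4A). No gene of the decay lists passed by edgeR or by limma voom, which called 0.0322% of genes in liver, and single genes did by DESeq2, which called 3.43%. Deadenylation genes, among them the CCR4-NOT subunits, had a median log2 fold change of -0.03 over 21 tested genes, against 0.0048 for all genes, with 2 higher and 2 lower at an unadjusted p under 0.05. Btg2, an antiproliferative factor that binds the deadenylase, averaged 9.27 ± 2.66 CPM in WT livers, against 16.7 ± 2.88 CPM in IR 4A livers (0.85 in log2, SE 0.18, adjusted p = 0.109 by edgeR) and was called by DESeq2. Cnot1, the scaffold subunit that ZFP36 proteins contact, had -0.02 (SE 0.07, edgeR adjusted p = 0.89). Decapping genes had a median of -0.06 over 18, with 1 higher and 0 lower at an unadjusted p under 0.05 and 0 called by DESeq2. Exosome genes had a median of -0.12 over 14, with 0 higher and 2 lower at an unadjusted p under 0.05. Exosc4, a core exosome subunit, was lower in every IR 4A library (WT 9.23 ± 0.27 CPM, IR 4A 7.36 ± 0.46 CPM, adjusted p = 0.128 by edgeR) and was called by DESeq2. Among all 12421 tested liver genes, 227 had every IR 4A library below every WT library.

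Other regulators of unstable messenger RNAs had a liver median of 0.04 over 17 genes, with 3 higher and 1 lower at an unadjusted p under 0.05. Khsrp, which like the family promotes decay of AU-rich transcripts, had WT libraries at 37.7 ± 2.03 CPM and IR 4A libraries at 32.03 ± 1.01 CPM, with no overlap (-0.23, SE 0.06, edgeR adjusted p = 0.133), and was called by DESeq2. Of all 12421 tested liver genes, 227 were likewise lower with no overlap. Elavl1, which stabilises such transcripts, had -0.11 (SE 0.09) and Hnrnpd 0.10 (SE 0.07). Among 23 upstream kinases, phosphatases and adaptor genes the median was -0.01, with 2 higher and 3 lower at an unadjusted p under 0.05. Mapkapk2, the kinase that phosphorylates and restrains ZFP36, had -0.36 (SE 0.13, edgeR adjusted p = 0.205), and Ppp2r1a, a scaffold of the phosphatase that opposes it, had -0.29 (SE 0.07, edgeR adjusted p = 0.128) and was the single gene of this list called by DESeq2. Dusp1, a phosphatase of the same kinase cascade, had 0.49 (SE 0.39).

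The same lists in eWAT held no call by edgeR or limma voom, while DESeq2 called 7.31% of all genes there. Deadenylation genes had a median of -0.0023 over 21, decapping genes -0.02 over 18 and exosome genes 0.0004 over 14, against -0.08 for all genes. At an unadjusted p under 0.05 these lists held 0, 1 and 0 higher and 1, 2 and 0 lower genes, where 6.63% of all tested eWAT genes were higher and 9.24% lower. By DESeq2 Tob1, a relative of Btg2, and the decapping enzyme gene Dcp2 were called, with -0.44 (SE 0.13) and -0.32 (SE 0.12) in the edgeR fit. Other RNA-binding regulators had a median of -0.11 over 17, with 1 higher and 4 lower at an unadjusted p under 0.05. DESeq2 called 3 genes of this list, 1 higher and 2 lower, among them Tia1 and Zc3h12c. Upstream genes had a median of -0.13 over 24, with 1 higher and 3 lower at an unadjusted p under 0.05, and Mapkapk2 had 0.02 (SE 0.16). Ywhaz, an adaptor protein gene, was the single DESeq2 call of that list.

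Known target transcripts were read with the caution that several cytokines were too low to test. Of 31 targets 19 were tested in liver and 20 in eWAT, and Tnf, Il6, Il10, Csf2 and Ccl2 were not tested in either tissue. In liver 14 of 19 had a positive log2 fold change (median 0.21), 4 higher and 0 lower at an unadjusted p under 0.05. Among all tested liver genes 51% were positive (median 0.0048), and 8.6% were higher and 9.48% lower at that p. None was called by edgeR, limma voom or DESeq2. Myc, a growth regulator, averaged 7.37 ± 2.71 CPM in WT livers, against 21.8 ± 13.3 CPM in IR 4A livers (1.56 in log2, SE 0.44, adjusted p = 0.143 by edgeR). Fos had 1.33 (SE 0.47) at about 1 CPM, and Vegfa 0.21 (SE 0.12). Myc and Fos are also in the list of immediate early genes read below, so the results of these lists are not independent. Cyp7a1, the rate-limiting enzyme of bile acid synthesis, had -0.61 (SE 0.50) and Fgf21 -0.71 (SE 0.58). In eWAT 6 of 20 were positive (median -0.16), 2 higher and 1 lower at an unadjusted p under 0.05, with 0 called by edgeR, limma voom or DESeq2. These eWAT counts lay near the background of all tested genes, of which 40.1% were positive (median -0.08), 6.63% higher and 9.24% lower. Mcl1, a survival factor, had -0.38 (SE 0.15) and Ccnd1, a cyclin, 0.47 (SE 0.18). The transcripts were also grouped by copies of TTATTTATT, whatever their known regulation. In liver the median log2 fold change was 0.0024 over 10979 genes with 0 copies, 0.03 over 747 with 1 copy and 0.01 over 206 with 2 or more. In eWAT it was -0.08 over 14263, -0.15 over 911 and -0.12 over 270. Genes with 2 or more copies had longer 3′ UTRs (median 3007 bases in liver, against 1069 for genes with 0 copies), and the part of length was not tested.

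**Figure D5:**
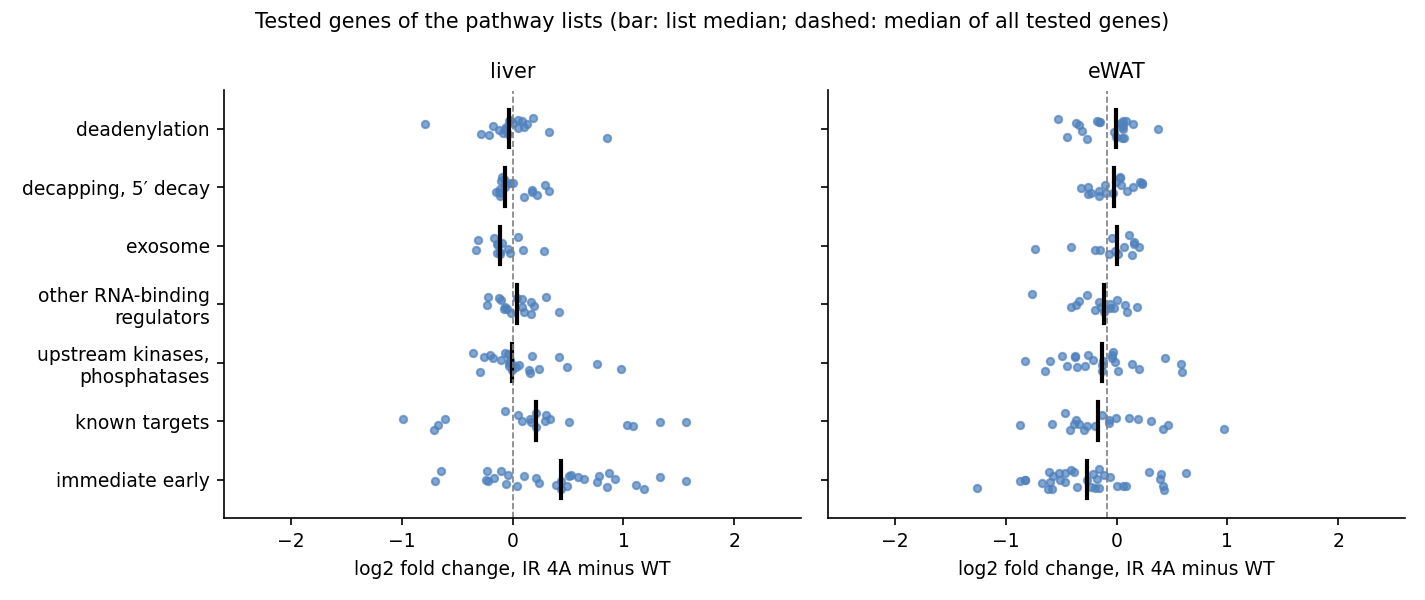
Log2 fold change, IR 4A minus WT (x axis), of each tested gene (points) of 7 lists (y axis) in liver and eWAT. Black bars are list medians and the dashed line is the median of all tested genes. Medians of the deadenylation, decapping and exosome lists lie between -0.12 and -0.03 in liver, while the immediate early list has 0.43 in liver and -0.26 in eWAT.

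Immediate early genes, the class to which the family belongs, were positive in 21 of 30 tested genes in liver (median 0.43, 10 higher and 0 lower at an unadjusted p under 0.05) and in 8 of 35 in eWAT (median -0.26, 1 higher and 3 lower). Over all tested genes 51% were positive in liver (8.6% higher and 9.48% lower at that p), and 40.1% in eWAT (6.63% higher and 9.24% lower), with medians of 0.0048 and -0.08. None passed by edgeR or limma voom in either tissue. DESeq2 called 4 higher genes of the list in liver (Btg2, Ccn2, Ier2 and Jun), where it called 3.43% of all genes. In eWAT it called 2 lower genes of the 35 (Klf4 and Nr4a3), where it called 7.31% of all genes. Ier2 was higher in every IR 4A liver library (WT 7.81 ± 0.89 CPM, IR 4A 10.6 ± 1.14 CPM, adjusted p = 0.126 by edgeR), as were 1.68% of all tested liver genes. Junb had -0.10 (SE 0.25) and Egr1 0.43 (SE 0.47) in liver. Of the members, Zfp36l1 had the sign of this list's median in both tissues, as did Zfp36l2, and Zfp36 in eWAT only. The liver sign of Zfp36l1 was known when the members were chosen, so that match was fixed beforehand. In liver the log2 fold change of Zfp36l2 was -0.01 without WT 1 and WT 3. In eWAT most tested genes were negative, as the members were.

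The genes whose pattern over the 10 libraries of a tissue was most like each member were ranked by Pearson's r of log2 CPM among genes with a mean of at least 10 CPM (6745 ranked in liver, 10800 in eWAT). These values describe the libraries, which share depth and composition, and are given without a p. Both genotypes were pooled, so a member that differs between them draws genes that differ in the same direction. The log2 fold changes of the listed genes are therefore no separate result. In liver the genes most like Zfp36l1 were Rsbn1l (r = 0.965), Zcchc2 (0.961), Resf1 (0.954) and Khnyn (0.947), an endoribonuclease partner of the antiviral protein ZAP. Their log2 fold changes were 0.37 to 0.53. Most like Zfp36 in liver were Vps18 (0.913), St3gal1 (0.894), Tubgcp6 (0.893) and Marchf6 (0.887), and most like Zfp36l2 were the thyroid hormone receptor gene Thrb (0.96), the fatty acid elongase gene Elovl6 (0.937), Vps26a (0.932) and Dnajb6 (0.923). No gene appeared in more than 1 of these liver lists. In eWAT the genes most like Zfp36 were Psen2 (0.988), Rhob (0.984), the NF-kappa-B inhibitor gene Nfkbia (0.984) and the macrophage lectin gene Siglec1 (0.983). Those most like Zfp36l1 were Isoc1 (0.988), Emilin1 (0.982), Tgm2 (0.98) and P3h3 (0.979), of which Emilin1 and P3h3 encode an elastic fibre protein and a collagen hydroxylase. Those most like Zfp36l2 were Gpc3 (0.977), Serpinf1 (0.966), Serping1 (0.966) and Htra1 (0.965), which encode secreted or surface proteins and had log2 fold changes of -0.87 to -1.08.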

How the data were processed

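RNA was enriched for poly-A and sequenced from stranded libraries, per the labels' protocols. The authors deposited estimated counts per gene, rounded to whole numbers, and the submitters' processing notes name the GRCm39 build, DESeq2 1.32.0 and Salmon 1.8.0, giving no settings. The deposited DESeq2 tables give a log2 fold change, its SE and an adjusted p-value, per the file headers. Repeat rows of a gene identifier were left out (83 for liver, 208 for eWAT). Columns headed as controls were taken as the WT samples of the same tissue and number. Genes were kept by filterByExpr (minimum count 10, minimum total 15) and tested with edgeR 4.0.16 (quasi-likelihood F test, TMM, R 4.3.3), two-sided, with Benjamini-Hochberg adjustment over all genes and a threshold of 0.05. Log2 CPM used a prior count of 2. Tissues were compared over the 14696 genes kept of 15350 in both tables. Alternatives used DESeq2 1.42.0, limma 3.58.1 and other scalings and filters. The test was checked on simulated data. No libraries were duplicates (within groups, chi-square over its degrees of freedom was 11.8 or more).

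The members and gene lists were chosen with earlier results of these data known. Genes named are the 3 members, up to 4 called members of each list or otherwise the 2 with the smallest p, a fixed set of pathway genes where tested (not all are printed, and some are not reported here), and the 4 genes most like each member in each tissue. Genes named for a DESeq2 call were chosen after their values were seen. 3′ UTR motifs come from GENCODE M21 (GRCm38), with a 3′ UTR for 96.1% of genes tested in liver and 93.7% in eWAT. Same-numbered libraries were not taken as pairs, as the labels name no shared animal.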

Additional observations from a re-analysis of the deposited data

Results flagged for a closer look

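Across 24 groups of 5 values (the 3 members and their 3 ratios in each of 4 groups), 1 value lay far from the rest of its group, where chance gives about 1 in 20. In eWAT WT replicate 4 the log2 ratio of Zfp36 to Zfp36l2 was -0.31, and its gap to the nearest WT library was 0.835 of the group's range (limit 0.71 for 5 libraries). The same library was the highest in the level of each member, and in fibroblast (7559 CPM) and macrophage (1111 CPM) markers, and the lowest in epididymis markers (4741 CPM). The part of these in the ratio was not tested.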

How the results depend on the processing

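The liver log2 fold changes of the members moved by less than 1 SD under all 20 alternatives. That SD is the spread of log2 CPM between single libraries of a genotype, a wide limit for a difference of means. Zfp36l1 ran from 0.67 to 0.89 and Zfp36 from -0.47 to -0.13. Zfp36l2 ran from -0.01 to 0.38 and lost its sign without WT 1 and WT 3. The number of called liver genes, 1 by edgeR, was 426 with DESeq2, 4 with voom, 49 with all 20 libraries in one fit, 386 with library totals alone, 3 with the replicate block and 0 without WT 1 and WT 3. Leaving out 1 library gave 0 to 143, the highest without IR 4A 1. In eWAT, 2 genes became 1204 with DESeq2, 78 with voom, 295 in one fit of 20 libraries, 1 with upper quartile scaling, with the stricter filter or with library totals alone, and 0 without a filter, with the replicate block, without the testis-high libraries or with the epididymis covariate. Leaving out 1 library gave 0 to 6, and the fibroblast covariate 2338. In eWAT, Zfp36l2 passed with DESeq2 (-0.67) and voom (-0.65). With the fibroblast covariate Zfp36 turned to 0.88 (edgeR adjusted p = 0.0303) and Zfp36l1 to 0.20, and with the epididymis covariate Zfp36 turned to 0.16. The cause was not tested.

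Between tissues, with library totals alone Zfp36 (-0.32) no longer passed and Zfp36l1 (0.78) and Zfp36l2 (1.44) turned. Zfp36l2 also turned with upper quartile scaling (0.22) and voom (0.047), and ran from -0.30 to 0.12 without 1 library. The eWAT ratio of Zfp36l1 to Zfp36l2 did not pass with medians (0.40) and passed without any 1 library (0.31 to 0.39). Leaving out 1 library gave -0.18 to 0.045 for Zfp36l1 to Zfp36 and 0.33 to 0.52 for Zfp36 to Zfp36l2. Correlations of same-numbered WT and IR 4A libraries ran from -0.07 to 0.08 in liver and from -0.73 to 0.67 in eWAT. Those of same-numbered liver and eWAT libraries of a genotype ran from -0.16 to 0.07. So few values cannot show whether the numbers mark pairs, and pairing remains unknown. The replicate block changed no call of a member. The alternatives with library totals, covariates or without the testis-high libraries were chosen after seeing the data. With 5 libraries per group the spread between libraries, not depth, limits the members.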
